A study of Mus musculus with 18 samples.

Results

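The genes described here are 31 astrocyte genes, taken from a named list: 20 general astrocyte genes and 11 filament, white-matter and reactive astrocyte genes. The list was chosen with earlier results of these data known, so its shares beside those of all genes are a description only. The 31 genes were read across 6 genotypes in a table of 54446 gene identifiers. Of these identifiers, 20635 passed the filter on low counts, all 31 astrocyte genes among them. Total RNA was sequenced from spinal cord of 18 untreated mice at 10 months of age, with 3 animals per genotype. Non-transgenic C57BL/6 mice (NTg) served as controls. Heterozygous knock-in mice carried human ATXN2 with 22 glutamines (Q22), human ATXN2 with 33 glutamines (Q33), human TDP-43 (TDP-43), hATXN2-Q22 with hTDP-43 (Q22 double knock-in) or hATXN2-Q33 with hTDP-43 (Q33 double knock-in). Promoters driving the human sequences, the number of founder lines, the sexes and the cord level dissected are not given in the sources used here. ATXN2 and TDP-43 are RNA-binding proteins linked to amyotrophic lateral sclerosis.

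Astrocytes take up glutamate released at synapses, buffer potassium and water, and couple to each other through gap junctions. Fibrous astrocytes of the white matter and the astrocytes under the cord surface are rich in intermediate filaments and in genes such as Gfap, Vim, Cd44 and Myoc, while protoplasmic astrocytes of the grey matter are rich in transporters. On injury or inflammation, reactive astrocytes raise filament genes together with genes such as Serpina3n and Osmr, in part through cytokines of the IL-6 family that act on the transcription factor STAT3. Levels below are CPM (a gene's counts scaled by the library total and a TMM factor) for 1 gene across libraries, and RPKM (CPM per kilobase of exon) where genes are compared with each other. In bulk tissue, fewer cells of a type and less RNA per cell cannot be told apart.

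The 250 bases before the RefSeq start site (GRCm38.p6) were matched for 27 of the 31 genes, and those of 6 genes on which the results turn are printed here, 4 that were lower and 2 that were higher in the Q33 double knock-in. Aqp4, Atp1b2, Cd109 and Sox9 had no match. None of the 6 windows overlaps an annotated exon, and the Gfap window lies within the annotated span of the gene while the others lie upstream of theirs. Capitals mark matches on either strand to 4 motifs, the STAT-type TTCNNNGAA, the AP-1-type TGANTCA, the TATA-box letters TATAAA and the CCAAT box.
Gfap (filament, chr11:102897201-102897450, minus strand): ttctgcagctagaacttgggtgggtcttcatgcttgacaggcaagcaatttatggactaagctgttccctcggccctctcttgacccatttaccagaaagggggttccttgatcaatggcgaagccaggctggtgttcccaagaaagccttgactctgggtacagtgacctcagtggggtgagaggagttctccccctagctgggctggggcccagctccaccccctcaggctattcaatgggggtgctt
Cd44 (hyaluronan receptor, chr2:102901666-102901915, minus strand): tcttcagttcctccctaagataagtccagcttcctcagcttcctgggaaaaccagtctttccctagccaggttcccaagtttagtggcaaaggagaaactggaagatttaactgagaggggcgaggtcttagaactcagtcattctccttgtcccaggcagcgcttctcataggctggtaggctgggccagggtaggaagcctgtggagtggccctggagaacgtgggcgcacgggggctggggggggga
Myoc (secreted glycoprotein, chr1:162638900-162639149, plus strand): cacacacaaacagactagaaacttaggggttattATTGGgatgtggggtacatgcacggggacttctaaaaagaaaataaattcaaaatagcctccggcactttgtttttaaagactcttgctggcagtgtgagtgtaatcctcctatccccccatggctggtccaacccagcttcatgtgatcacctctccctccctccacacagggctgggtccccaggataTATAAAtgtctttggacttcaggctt
Slc1a3 (glutamate transporter, chr15:8710808-8711057, minus strand): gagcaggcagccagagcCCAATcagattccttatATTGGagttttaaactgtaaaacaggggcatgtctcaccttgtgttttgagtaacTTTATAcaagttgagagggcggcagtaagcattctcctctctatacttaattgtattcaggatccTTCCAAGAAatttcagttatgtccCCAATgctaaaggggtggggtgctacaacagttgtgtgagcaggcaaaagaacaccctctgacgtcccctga
Slc7a10 (amino acid exchanger, chr7:35186135-35186384, plus strand): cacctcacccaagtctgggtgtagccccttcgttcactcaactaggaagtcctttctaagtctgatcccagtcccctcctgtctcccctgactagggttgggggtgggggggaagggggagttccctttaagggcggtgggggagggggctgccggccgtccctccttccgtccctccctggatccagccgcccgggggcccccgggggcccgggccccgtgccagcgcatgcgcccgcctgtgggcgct
Gjb6 (gap junction, chr14:57133612-57133861, minus strand): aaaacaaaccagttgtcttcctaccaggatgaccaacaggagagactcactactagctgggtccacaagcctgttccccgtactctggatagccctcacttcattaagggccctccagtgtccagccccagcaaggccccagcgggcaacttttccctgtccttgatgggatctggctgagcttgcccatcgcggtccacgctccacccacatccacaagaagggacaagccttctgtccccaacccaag

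Among these windows, Slc1a3 held the STAT-type letters from 96 to 88 bases before the start. Slc1a3 also held TATAAA, on the opposite strand, and 3 CCAAT matches, and none of these matches share a base. Myoc held TATAAA from 26 to 21 bases before its start and 1 CCAAT match. The windows of Gfap, Cd44, Slc7a10 and Gjb6 held none of the 4 motifs. Over the 27 matched genes, TTCNNNGAA was found in 5 (Acsbg1, Agt, Aldoc, Ntsr2 and Slc1a3), TGANTCA in 2 (Cp and Gja1), TATAAA in 5 and CCAAT in 12. Some genes had more than 1 window, and counted per promoter the motifs stood, in the same order, in 5, 2, 5 and 12 of 31. In all 32851 promoters of the table, TTCNNNGAA stood in 7.02%, TGANTCA in 6.75%, TATAAA in 12.4% and CCAAT in 33.8%. The Slc7a10 window was 69.6% G and C with 14 CpG sites, against medians of 52.4% and 6 over all promoters, and the Gfap window was 55.6% G and C with 2 CpG sites. A match describes these letters only.

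Per kilobase of exon, Slc1a2, the main astrocyte glutamate transporter, had the highest level of the 31 genes, with a mean of 356 RPKM over the 18 libraries. Glul (glutamine synthetase) followed at 227 RPKM, then Gfap at 219, the glycolytic enzyme gene Aldoc at 194 and the calcium-binding protein gene S100b at 189. The sodium pump subunit gene Atp1b2 had 151 RPKM, the water channel gene Aqp4 149 and the potassium channel gene Kcnj10 121. Slc1a3, the other main glutamate transporter of astrocytes, had a mean of 7.56 RPKM, close to Aldh1l1 (7.42), a folate enzyme gene used as a marker of all astrocytes. At the low end stood the reactive genes S1pr3 (0.831), Osmr (0.564), Aspg (0.563) and Ptx3 (0.133). Of the defining genes Gfap, Slc1a2, Aqp4 and Aldh1l1, the lowest value in any library was 28.0 CPM, for Aldh1l1, and 3 counts equalled 0.101 to 0.176 CPM. Serpina3n belongs to a cluster of similar genes, and read pairs that matched several places were left out, so its level is uncertain. On the same strand, 2.80% of the Glul exon bases and 2.33% of those of Aldh1l1 were shared with another gene.

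**Figure D1:**
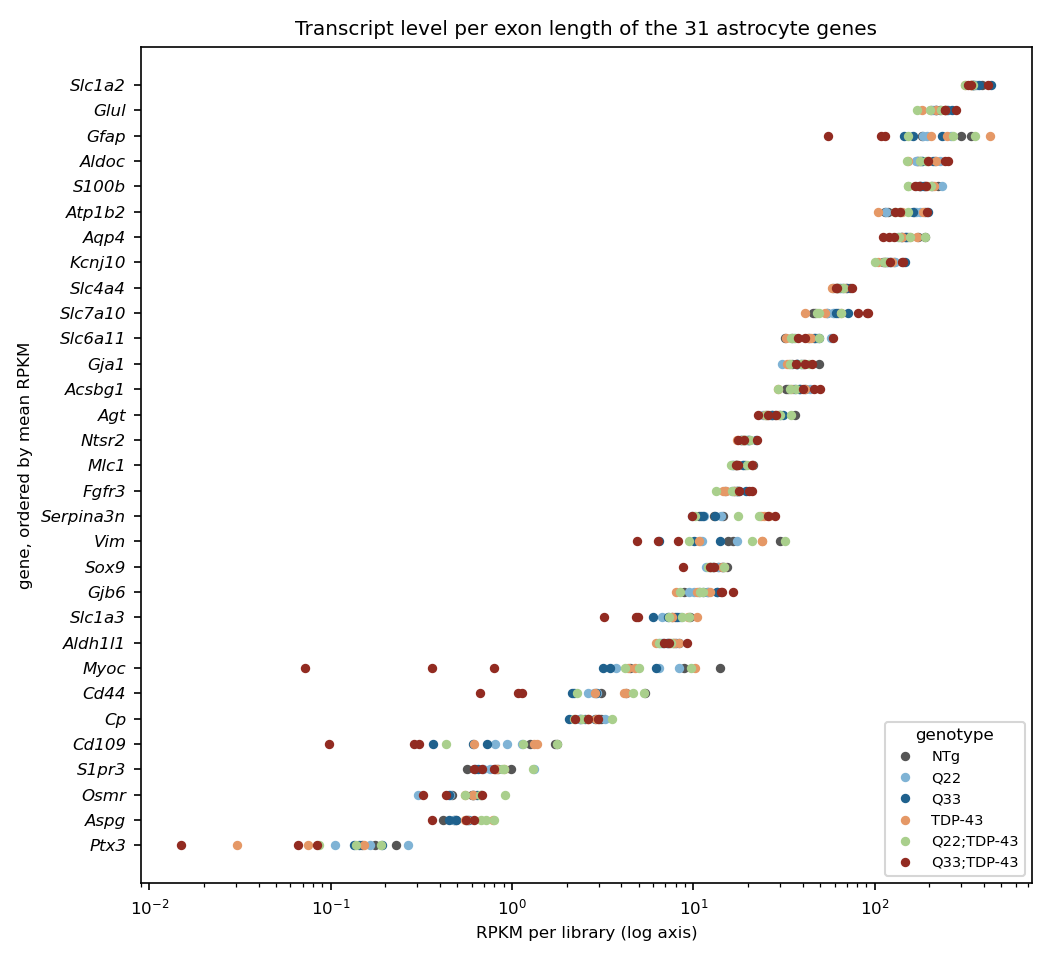
RPKM of the 31 astrocyte genes on a log axis, 1 point per library coloured by genotype, ordered by the mean over 18 libraries. Slc1a2 lies between 314 and 440 RPKM in every library, while Myoc ranges from 0.0723 to 14.1 RPKM with the lowest points in the Q33 double knock-in (dark red).

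The genes differed in how far they ranged. Ntsr2 (neurotensin receptor) had the narrowest range, with its highest library 1.28-fold over its lowest, followed by the bicarbonate transporter gene Slc4a4 (1.29-fold), Mlc1 (1.31-fold) and Slc1a2 (1.40-fold). Gfap ranged 7.83-fold, Vim 6.54-fold, Cd44 8.10-fold and Cd109 18.1-fold. Myoc ranged 195-fold between a library of 0.150 CPM and 1 of 29.2 CPM. Ptx3 ranged 17.7-fold, but its lowest library held 1 count.

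Several library properties moved with the genotype. Depth ran from 16061359 to 30978678 counts per library. The mean log2 CPM of 6 Hox10 and Hox11 genes, which are expressed in the lumbar and sacral cord, was above 0 in all 3 libraries of the Q33 double knock-in and in 3 others (Q33 replicates 2 and 3, Q22 double knock-in replicate 1), and lay between -2.46 and -0.20 in the remaining 12. Mitochondrial ribosomal RNA took 23.4% to 28.7% of counts in the Q33 double knock-in and 12.7% to 23.4% elsewhere. Reads of 4 Y-linked genes exceeded 10 CPM in 0 of 3 NTg, 3 of 3 Q22, 2 of 3 Q33, 2 of 3 TDP-43 and 1 of 3 in either double knock-in. Neuron markers summed to 5798 to 7576 CPM in the Q33 double knock-in and to 3947 to 5017 CPM in the other 15 libraries. Of 8 neuron markers 5 rose and 1 fell against NTg, where 5.68% of all genes tested rose and 6.39% fell. Summed oligodendrocyte markers had 10229 to 12804 CPM against 12138 to 17193 CPM elsewhere, precursor markers 129 to 147 against 154 to 195 CPM, and microglia markers 195 to 222.48 against 222.49 to 320.3 CPM. No marker of these 4 types was at 0 in any library, and their part in the results below was not tested.

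Setting the Q33 double knock-in against NTg asks which astrocyte genes differ where the longer tract and human TDP-43 are present together. The filament genes Gfap and Vim, the white-matter and surface genes Cd44, Myoc and Cd109, the glutamate transporter gene Slc1a3 and the water channel gene Aqp4 fell. Slc7a10, an exchanger of small neutral amino acids, and Gjb6, which encodes a gap junction connexin, rose. These are 9 of 31 genes, 2 higher and 7 lower (edgeR quasi-likelihood test, Benjamini-Hochberg adjusted p under 0.05), where 12.1% of all genes tested passed, 5.68% higher and 6.39% lower. The median log2 fold change was -0.04 over the 31 genes and -0.01 over all genes tested. In the fit without Q33 double knock-in replicate 1, 5 genes passed. For fits that left out 1 library, the share of all genes that passed is not given, here or below. The share is also not given for an unadjusted p under 0.05 or for groups that did not overlap. Such counts are therefore not set against all genes. When libraries were scaled by their totals in place of TMM, the median of all genes moved from -0.01 to -0.25 and 1 gene was higher and 11 lower, where 20.1% of all genes passed. Slc7a10 then had 0.59 and Gjb6, which no longer passed, 0.27. The 8 genes called under both scalings had the same direction, while the median of the 20 general genes changed sign, to -0.21. With TMM, over the 20 general astrocyte genes the median was 0.03, with 2 higher and 2 lower. Over the 11 filament, white-matter and reactive genes it was -1.57, with 5 lower and 0 higher. The 5 were the 2 filament genes (median -1.63) and the 3 white-matter and surface genes (-2.78). The 6 reactive genes had a median of -0.14, and 0 of them passed.

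**Figure D2:**
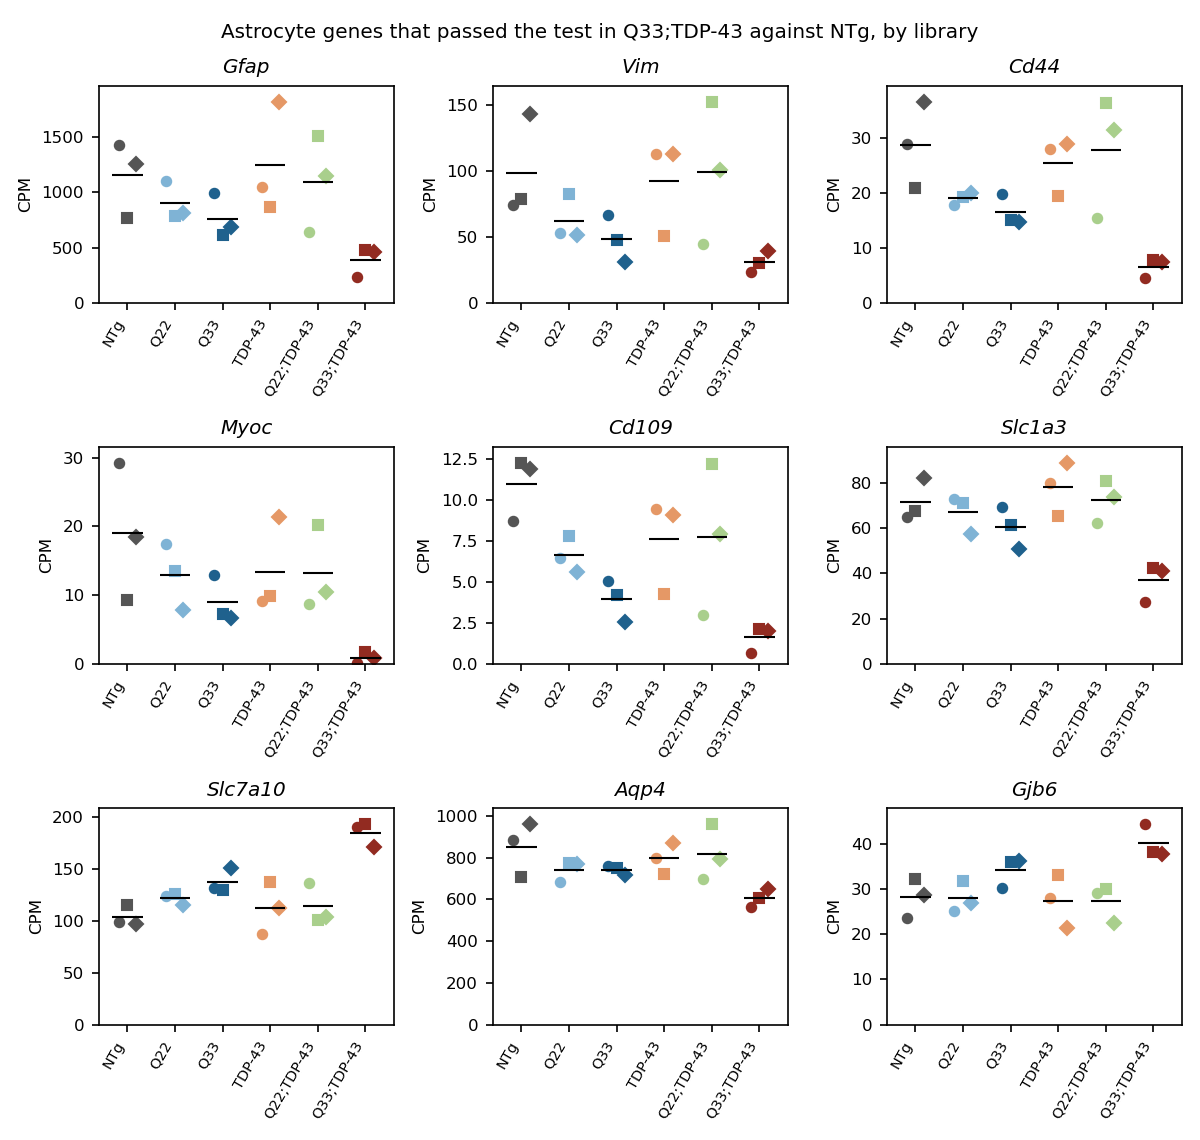
CPM of the 9 astrocyte genes that passed the test in the Q33 double knock-in against NTg, on linear axes from 0. Points are libraries (circle, square and diamond for replicates 1, 2 and 3) and lines are genotype means. All 3 Q33 double knock-in libraries (labelled Q33;TDP-43) lie below all NTg libraries for 7 genes and above them for Slc7a10 and Gjb6. The genes shown were picked because they passed. Of all 31 genes, 8 were so ordered as lower and 6 as higher, and the share of all genes is not given.

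Gfap encodes the main intermediate filament of mature astrocytes. Its NTg libraries had 1435, 769 and 1262 CPM, those of Q22 1108, 783 and 818, those of Q33 993, 610.1 and 685, those of TDP-43 1050.2, 865 and 1821, and those of the Q22 double knock-in 640.1, 1508 and 1146. The Q33 double knock-in had 233, 479 and 456 CPM, lower than each of the other 15 libraries. The mean fell from 1155 ± 346 to 389 ± 136 CPM (SD, n = 3), a log2 fold change of -1.57 (SE 0.34, edgeR adjusted p = 0.00754). Leaving out Q33 double knock-in replicate 1 gave an adjusted p of 0.0545.

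Vim encodes vimentin, the filament protein that astrocytes share with immature glia, fibroblasts and vessel cells. In NTg it had 73.8, 78.5 and 143 CPM, in Q22 52.7, 82.0 and 51.4, in Q33 66.5, 47.8 and 30.8, in TDP-43 113, 50.7 and 113, while the Q22 double knock-in had 44.7, 152 and 100.4. The Q33 double knock-in had 23.3, 30.1 and 38.8 CPM, below every NTg library but overlapping with Q33. Markers of meningeal and perivascular fibroblasts, which also express Vim, summed to 25.1 to 32.3 CPM in the Q33 double knock-in and to 27.5 to 42.98 CPM in the other libraries. The difference from NTg was -1.68 on the log2 scale (SE 0.40, adjusted p = 0.013 in edgeR). It missed the threshold without NTg replicate 3 (adjusted p = 0.073) and without Q33 double knock-in replicate 1 (0.0816).

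Cd44, the receptor for hyaluronan and a marker of fibrous astrocytes, had 28.8, 20.9 and 36.5 CPM in NTg, 17.8, 19.2 and 19.9 in Q22, 19.7, 14.97 and 14.6 in Q33, 28.0, 19.4 and 28.8 in TDP-43, with 15.4, 36.2 and 31.4 in the Q22 double knock-in. In the Q33 double knock-in it had 4.502, 7.67 and 7.30 CPM, and no other library was that low. The fall from 28.7 ± 7.81 to 6.49 ± 1.73 CPM was a log2 fold change of -2.15 (SE 0.28, edgeR adjusted p = 0.00023). All 6 fits that left out 1 library kept the call.

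Myoc encodes myocilin, a secreted glycoprotein found in astrocytes at the surface of the cord. It had 29.2, 9.33 and 18.4 CPM in NTg, 17.4, 13.4 and 7.80 in Q22, 12.96, 7.19 and 6.62 in Q33, 9.07, 9.85 and 21.3 in TDP-43, with 8.72, 20.2 and 10.5 in the Q22 double knock-in. Levels in the Q33 double knock-in were 0.150, 1.65 and 0.752 CPM, the first of these from 4 counts. This was the largest change among the 31 genes, with a log2 fold change of -4.49 (SE 0.61, edgeR adjusted p = 0.000282). The groups did not overlap, and the call was kept whichever library was left out.

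Cd109, a membrane-anchored glycoprotein that binds TGF-beta, had 8.70, 12.2 and 11.9 CPM in NTg, 6.47, 7.80 and 5.58 in Q22, 5.05, 4.18 and 2.53 in Q33, 9.42, 4.24 and 9.08 in TDP-43, with 2.99, 12.2 and 7.92 in the Q22 double knock-in. All 3 values of the Q33 double knock-in, 0.675, 2.13 and 1.99 CPM, were below those of all other libraries. Its log2 fold change against NTg was -2.78 (SE 0.46, edgeR adjusted p = 0.00138), and no left-out library ended the call.

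In the glutamate and amino acid group, 1 of the 2 glutamate transporter genes passed. Slc1a3 (GLAST) had 64.9, 67.9 and 82.3 CPM in NTg, 73.2, 71.3 and 57.6 in Q22, 69.5, 61.5 and 50.9 in Q33, 79.9992, 65.4 and 89.0 in TDP-43, with 62.4, 81.1 and 74.0 in the Q22 double knock-in. It was at 27.4, 42.3 and 41.1 CPM in the Q33 double knock-in, lower than in the other 15 libraries. The log2 fold change against NTg was -0.96 (SE 0.17, edgeR adjusted p = 0.00203). Slc1a2 (GLT-1) had 4555, 5157 and 4678 CPM in NTg, 4556, 4566 and 4827 in Q22, 4561, 4904 and 5783 in Q33, 4432, 4455 and 4122 in TDP-43, with 4438, 4602 and 4151 in the Q22 double knock-in. In the Q33 double knock-in it had 4273, 4457 and 5539 CPM, which span the NTg values, and its log2 fold change was -0.01 (SE 0.11, edgeR adjusted p = 0.958).

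Slc7a10 (Asc-1), which exchanges glycine, D-serine and other small neutral amino acids, had 99.2, 115 and 96.5 CPM in NTg, 124, 126 and 115 in Q22, 132, 129.5 and 150.4 in Q33, 87.0, 138 and 113 in TDP-43, with 137, 101 and 104 in the Q22 double knock-in. At 190.3, 193 and 171 CPM, the Q33 double knock-in was above each of the other 15 libraries. The rise from 104 ± 10.1 to 185 ± 12.1 CPM was a log2 fold change of 0.83 (SE 0.14, edgeR adjusted p = 0.00148) and was called in each fit that left out a library. The other 2 genes of the group, Glul (0.24, SE 0.12) and the GABA transporter gene Slc6a11 (0.27, SE 0.19), had log2 fold changes that did not pass.

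Among the 7 water, ion and gap junction genes, 1 fell and 1 rose. Aqp4, the water channel of astrocyte endfeet, had 883, 707 and 960.3 CPM in NTg, 683, 774 and 768 in Q22, 760.1, 749.8 and 717 in Q33, 797, 721 and 872 in TDP-43, with 695, 959.9 and 793 in the Q22 double knock-in. It had 564, 606 and 648 CPM in the Q33 double knock-in, below the other 15, with a log2 fold change of -0.49 (SE 0.12, edgeR adjusted p = 0.0149). Gjb6 had 23.7, 32.3 and 28.6 CPM in NTg, 25.2, 31.8 and 27.1 in Q22, 30.3, 36.1 and 36.2 in Q33, 28.0, 33.2 and 21.4 in TDP-43, with 29.2, 30.2 and 22.6 in the Q22 double knock-in. At 44.5, 38.3 and 37.8 CPM the Q33 double knock-in was above all of them (log2 fold change 0.51, SE 0.16, edgeR adjusted p = 0.0393).

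Both calls were lost in several fits that left out 1 library. Aqp4 missed the threshold without NTg replicate 1 (adjusted p = 0.0566), NTg replicate 3 (0.0892) or Q33 double knock-in replicate 1 (0.0861), and Gjb6 in 4 of 6 such fits (0.0638 to 0.17). Kcnj10, which conducts the potassium uptake of astrocytes, had 597, 693 and 618.4 CPM in NTg, 702, 669 and 643 in Q22, 659.8, 631 and 799 in Q33, 566, 672 and 616 in TDP-43, with 615, 605 and 539.7 in the Q22 double knock-in, and 659, 773 and 765 in the Q33 double knock-in. Its difference from NTg was 0.20 on the log2 scale (SE 0.10, adjusted p = 0.201 in edgeR), with overlapping groups. Gja1, the main astrocyte connexin gene, had a log2 fold change of -0.03 (SE 0.13), the bicarbonate transporter gene Slc4a4 -0.06 (SE 0.10), Mlc1, which encodes a membrane protein of endfeet, -0.04 (SE 0.11), and Atp1b2 0.22 (SE 0.20).

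None of the 3 metabolism genes or the 5 identity, receptor and secreted genes passed against NTg in the main edgeR fit. Of the 8, 4 had an unadjusted p under 0.05 there, and DESeq2 called 3 higher (Aldoc, Acsbg1 and Fgfr3). Scaled by library totals, edgeR called Sox9 (-0.51), S100b (-0.39) and Agt (-0.48) lower, where 19.1% of all genes passed as lower. Without the filter on low counts, edgeR called Aldoc and Acsbg1 higher, where 4.53% of all genes passed as higher. Aldh1l1 had 36.1, 32.4 and 35.0 CPM in NTg, 35.7, 30.0 and 29.2 in Q22, 32.9, 30.6 and 37.6 in Q33, 28.0, 35.5 and 37.4 in TDP-43, with 33.6, 33.9 and 29.2 in the Q22 double knock-in, and 31.02, 41.6 and 33.3 in the Q33 double knock-in. All groups overlapped, and the log2 fold change against NTg was 0.03 (SE 0.13, edgeR adjusted p = 0.899). Acsbg1, which activates long-chain fatty acids, had 117, 140.2 and 119 CPM in NTg, 159, 139 and 127 in Q22, 138, 131 and 149.6 in Q33, 106, 148 and 124 in TDP-43, with 132, 122 and 105 in the Q22 double knock-in, and 167, 179.8 and 145 in the Q33 double knock-in. Its log2 fold change was 0.39 (SE 0.12, edgeR adjusted p = 0.0507).

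Fgfr3, a receptor for fibroblast growth factors, had 107, 125 and 120.5 CPM in NTg, 116, 124 and 122 in Q22, 125, 127 and 139.8 in Q33, 108, 120.4 and 104 in TDP-43, with 126, 118 and 95.8 in the Q22 double knock-in, and 149.8, 146 and 128 in the Q33 double knock-in. The difference from NTg was 0.27 on the log2 scale (SE 0.10, adjusted p = 0.0824 in edgeR), with no overlap between the groups. Aldoc had 0.41 (SE 0.14), the glial transcription factor gene Sox9 -0.28 (SE 0.13), S100b -0.15 (SE 0.13), Ntsr2 0.02 (SE 0.09) and the angiotensinogen gene Agt -0.25 (SE 0.13). In fits that left out 1 library, the lowest edgeR adjusted p was 0.0263 for Aldoc, 0.0278 for Acsbg1 and 0.0456 for Fgfr3. Aldh1l1, Sox9, S100b, Ntsr2 and Agt did not pass in any such fit. DESeq2 gave an adjusted p for 30 of the 31 genes, all but Ptx3, and called 12, 5 higher and 7 lower, where 18% of all genes it tested passed.

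None of the 6 reactive genes passed in edgeR against NTg, and 2 had an unadjusted p under 0.05. DESeq2 gave no adjusted p for Ptx3 and called none of the other 5. Ptx3 passed as lower when libraries were scaled by their totals, and Serpina3n as higher without the filter on low counts, where 8.12% of all genes passed. Serpina3n, a secreted protease inhibitor, had a log2 fold change of 0.73 (SE 0.29, edgeR adjusted p = 0.108), with 53.2, 57.8 and 20.4 CPM in the Q33 double knock-in against 22.2, 26.9 and 30.2 in NTg. The third of these libraries was below all of NTg while the other 2 were above. In the 6 edgeR fits that left out 1 library, the Serpina3n log2 fold change ran from 0.48 to 1.07. Its adjusted p ran from 0.00698 to 0.358, so its call depended on the library left out. Ptx3, a soluble pattern recognition protein, had -1.71 (SE 0.59, edgeR adjusted p = 0.063) at 0.225, 0.0402 and 0.177 CPM against 0.613, 0.469 and 0.4003, with 1 library of the Q33 double knock-in under the level of 3 counts. The oncostatin M receptor gene Osmr had -0.29 (SE 0.27), the asparaginase gene Aspg 0.15 (SE 0.23), the sphingosine phosphate receptor gene S1pr3 -0.16 (SE 0.26) and the copper-binding ferroxidase gene Cp -0.12 (SE 0.18).

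**Figure D3:**
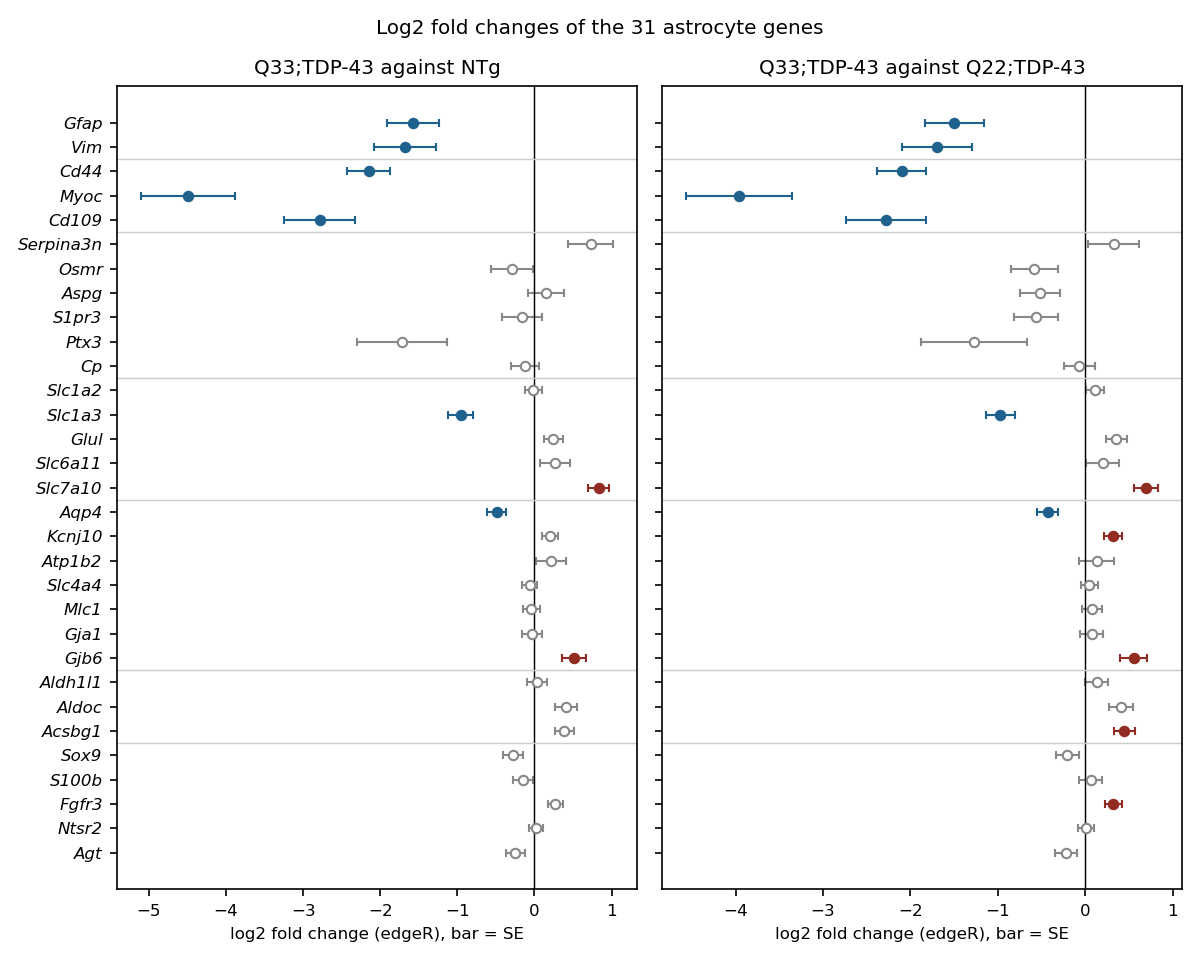
Log2 fold changes (edgeR, bars are SE) of the 31 genes in the Q33 double knock-in against NTg (left) and against the Q22 double knock-in (right), grouped by role. Filled points passed the test, blue lower and red higher, and open grey points did not. Myoc lies furthest left, at -4.49 and -3.96, and the reactive genes from Serpina3n to Cp are open in both.

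Levels of several of the genes moved with library properties. Outside the Q33 double knock-in, the 3 libraries with a Hox10 and Hox11 level above 0 had Gfap at 610.1 to 685 CPM, below the 769 to 1821 CPM of the other 12, and Cd44 at 14.6 to 15.4 against 17.8 to 36.5 CPM. Vim (30.8 to 47.8 against 50.7 to 152 CPM) and Cd109 (2.53 to 4.18 against 4.24 to 12.2 CPM) were ordered alike, and Fgfr3 was higher in the 3 (126 to 139.85 against 95.8 to 125 CPM). Gfap, Cd44, Cd109, Myoc, Slc1a3, Aqp4 and Ptx3 were lower in each Q33 double knock-in library than in each of these 3, and Slc7a10 and Gjb6 higher. The share of all genes ordered in these ways was not counted, so these orderings are not set against a background.

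With the Hox10 and Hox11 level as a term in the fit, Cd44, Myoc, Cd109, Slc1a3 and Slc7a10 still passed against NTg, where 2.57% of all genes did. Gfap then had -1.21 (edgeR adjusted p = 0.086), Vim -1.08 (0.142), Aqp4 -0.41 (0.118) and Gjb6 0.46 (0.178). With Y-linked expression as a term, 10 genes passed, 2 higher and 8 lower, where 10.2% of all genes did. In that fit Gjb6 did not pass (0.49, edgeR adjusted p = 0.0647), while Ptx3 passed as lower (-2.06, 0.0324) and Acsbg1 as higher (0.42, 0.0493). With the mitochondrial ribosomal RNA share as a term, 0 of the 31 genes passed, where 0.136% of all genes did, and 7 of 31 had an unadjusted p under 0.05. Gfap had -0.70 in that fit (edgeR adjusted p = 0.49), Cd44 -1.85 (0.0748), Myoc -3.38 (0.0907) and Gjb6 0.01 (0.984). The 3 highest shares were those of the Q33 double knock-in, and the next, in Q33 replicate 2, was 23.35% against 23.36% for the lowest of them. With the 3 other libraries of high Hox level left out, a choice made after the data were seen, 8 of the 31 genes passed, where 9.23% of all genes did, and Gjb6 did not (adjusted p = 0.0573).

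Markers of other cells of the cord were read in the same comparison, and their part in the astrocyte results was not tested. Of all genes tested, 5.68% rose and 6.39% fell. Of 9 oligodendrocyte markers 1 fell, and all 9 had estimates below 0. Of 6 oligodendrocyte precursor markers 2 fell, Pdgfra (log2 fold change -0.42) and Cacng4 (-1.01). Of 9 tested fibroblast markers 1 fell, the collagen gene Col1a2 (-0.96, SE 0.14), while the median of the list was 0.30. Of 6 endothelial markers 2 rose, the tight junction gene Cldn5 (0.75) and Ly6c1 (0.65). Of 8 ependymal markers 1 fell, the cilium gene Spag17 (-1.66), and none of 3 tested Schwann cell markers passed. The shares called in the oligodendrocyte and fibroblast lists (11.1% each) and the ependymal list (12.5%) were near the 12.1% of all genes. The 8 astrocyte markers used in this check were all among the 31 genes, and 3 of them fell (Gfap, Slc1a3 and Aqp4).

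**Figure D4:**
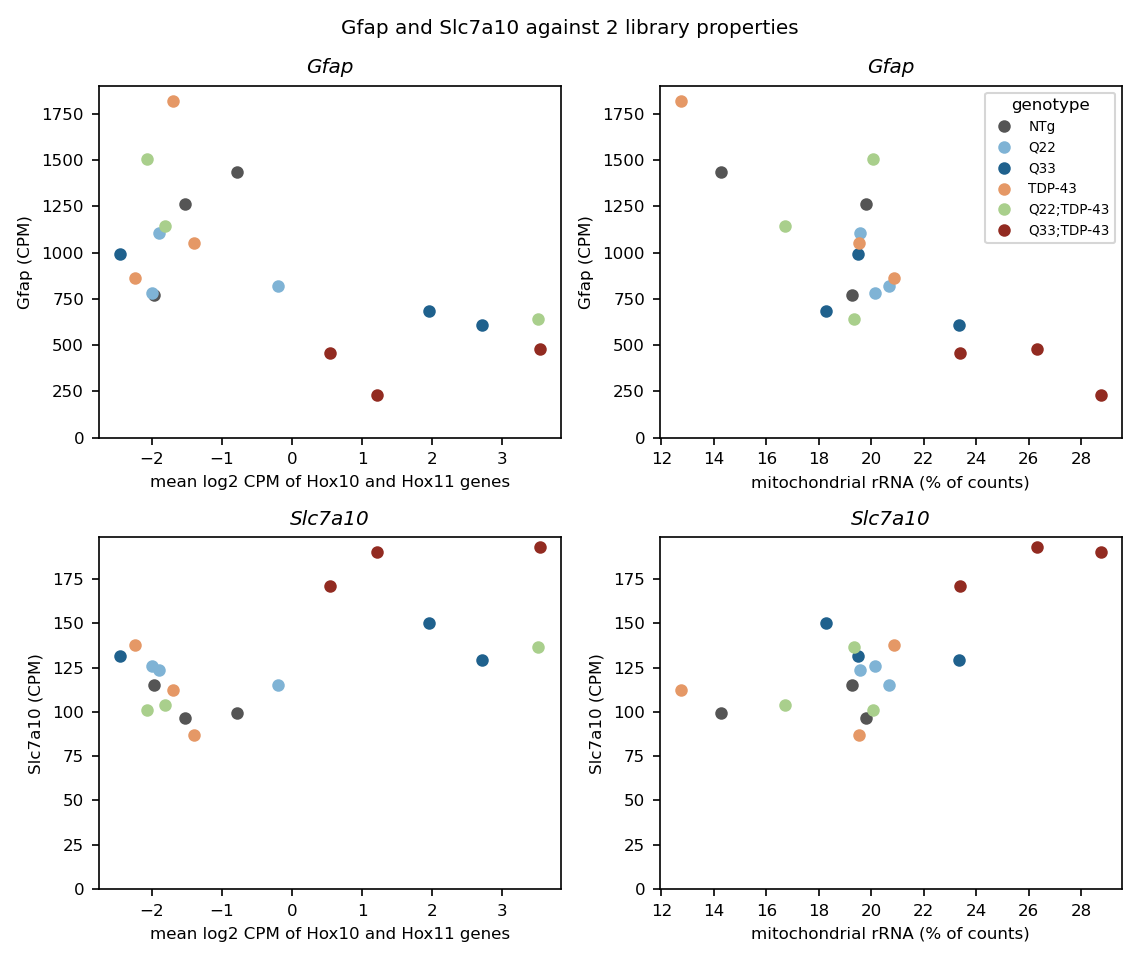
Gfap (top) and Slc7a10 (bottom), in CPM on axes from 0, against the mean log2 CPM of Hox10 and Hox11 genes (left) and the mitochondrial ribosomal RNA share of counts (right), 1 point per library. The Q33 double knock-in (dark red) holds the lowest 3 Gfap values, the highest 3 Slc7a10 values and mitochondrial shares of 23.4% to 28.7%.

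The Q33 double knock-in was next set against the Q22 double knock-in, which carries the shorter tract with human TDP-43. This comparison and the others with the Q33 double knock-in share its 3 libraries, so their values stand side by side and are not independent. Of the 31 genes, 5 were higher and 7 lower in edgeR, where 12.8% of all genes tested passed, 6.67% higher and 6.17% lower. The genes that fell had log2 fold changes of -1.496 for Gfap (SE 0.34), -1.69 for Vim (SE 0.40), -2.10 for Cd44 (SE 0.28), -3.96 for Myoc (SE 0.61), -2.28 for Cd109 (SE 0.46), -0.97 for Slc1a3 (SE 0.17) and -0.43 for Aqp4 (SE 0.12). Slc7a10 rose by 0.70 (SE 0.14), Gjb6 by 0.55 (SE 0.15), Acsbg1 by 0.45 (SE 0.12), Kcnj10 by 0.32 (SE 0.10) and Fgfr3 by 0.32 (SE 0.10). Scaled by library totals, 1 gene was higher and 11 were lower, where 19% of all genes passed. Without Q33 double knock-in replicate 1, 5 genes passed, and 7 without Q22 double knock-in replicate 2 or 3. Kcnj10 missed the threshold in 5 of 6 fits that left out a library, and Acsbg1, Fgfr3 and Aqp4 in 4 of 6. The general genes had a median of 0.12, against -0.01 over all genes tested, and with library totals these medians were -0.11 and -0.25. None of the 6 reactive genes passed in this comparison, and 4 had an unadjusted p under 0.05. These were Osmr (-0.58, SE 0.27), Aspg (-0.52, SE 0.23), S1pr3 (-0.56, SE 0.25) and Ptx3 (-1.27, SE 0.60), with edgeR adjusted p-values of 0.142 to 0.174, and all but Osmr were lower in each Q33 double knock-in library than in each of the Q22 double knock-in. Aspg and S1pr3 passed as lower with library totals, and Osmr without the filter on low counts, where 7.94% of all genes passed.

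Against TDP-43 alone, 3 of the 31 genes were higher and 7 lower, where 12.6% of all genes tested passed edgeR, 5.98% higher and 6.66% lower. Among them were Gfap at -1.68 on the log2 scale (SE 0.34), Cd44 at -1.97 (SE 0.28), Myoc at -3.99 (SE 0.61), Slc1a3 at -1.081 (SE 0.17) and Slc7a10 at 0.72 (SE 0.14). Vim (-1.58), Cd109 (-2.24) and Aqp4 (-0.40) were also lower, and Gjb6 (0.54) and Fgfr3 (0.35) higher. All 6 reactive genes had estimates below 0, from -0.54 for Ptx3 to -0.05 for Cp, and none had an unadjusted p under 0.05 in edgeR. DESeq2 gave no adjusted p for Ptx3 and called none of the other 5 in this comparison, where 19.6% of all genes it tested passed. When only the groups compared entered the fit, 6 genes passed, all lower, where 1.33% of all genes did, and with library totals 1 was higher and 9 lower, where 19.8% of all genes passed. Without TDP-43 replicate 1 or 3, or without Q33 double knock-in replicate 1, 6 genes passed.

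Against Q33 alone, 3 of the 31 genes were lower, where 0.892% of all genes tested passed, 0.678% as lower. These had log2 fold changes of -1.34 for Cd44 (SE 0.28, edgeR adjusted p = 0.0296), -3.40 for Myoc (SE 0.61, 0.0124) and -0.71 for Slc1a3 (SE 0.17, 0.0472). Gfap had -0.97 (SE 0.33, 0.133), Cd109 -1.30 (SE 0.47, 0.152) and Slc7a10 0.43 (SE 0.14, 0.111), with no overlap between the groups for any of them. Vim overlapped, at -0.66 (SE 0.40). In edgeR, 0 of the 31 genes passed without Q33 replicate 1 or without Q33 double knock-in replicate 1, and without Q33 replicate 2 Myoc alone passed. Without Q33 replicate 3, Myoc and Slc1a3 passed, and with Y-linked expression as a term, Cd44 and Myoc, where 0.795% of all genes did. With the 3 other libraries of high Hox level left out, which leaves Q33 with 1 library assumed to vary like the other groups, 0 of the 31 passed, as did 0% of all genes, and 7 had an unadjusted p under 0.05.

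**Figure D5:**
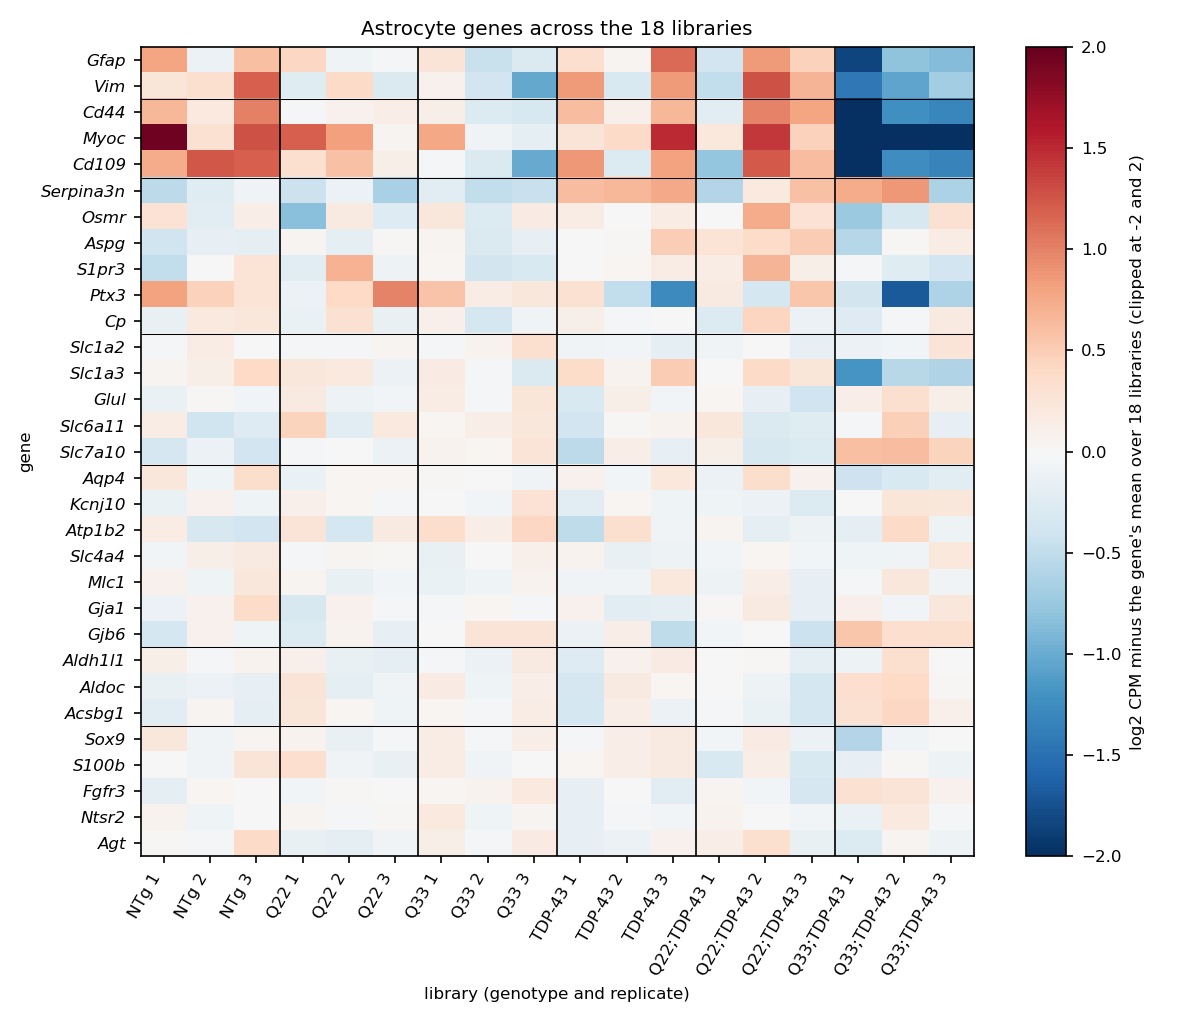
Log2 CPM of each gene minus its mean over the 18 libraries, clipped at -2 and 2, with genes grouped by role and libraries by genotype (replicates 1 to 3). The 3 Q33 double knock-in columns (right, labelled Q33;TDP-43) are blue for Gfap, Vim, Cd44, Myoc, Cd109 and Slc1a3 and red for Slc7a10 and Gjb6.

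With the filter on low counts, no astrocyte gene passed in edgeR in any of the other genotypes against NTg. In Q33, 0 of 31 passed, where 0% of all genes passed. An unadjusted p under 0.05 was found for 6 of the 31, and the share of all genes under that cut is not given. Cd109 had -1.48 (SE 0.42), Cd44 -0.81 (SE 0.26), Vim -1.03 (SE 0.39) and Slc7a10 0.41 (SE 0.14), each with an edgeR adjusted p of 0.658. The libraries of the groups did not overlap for these 4. Of all 31 genes, 3 were higher and 3 lower in every Q33 library than in every NTg library. The share of all genes so ordered is not given, so this count is not set against a background. Without the filter on low counts, 7 genes passed in this comparison, where 1.04% of all genes did. In Q22, 0 of 31 passed, with 2 at an unadjusted p under 0.05, and 0% of all genes passed. Cd44 (-0.60, SE 0.26) and Agt (-0.27, SE 0.13) were lower in every Q22 library than in NTg, and each had an edgeR adjusted p of 0.908.

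In TDP-43 against NTg, 0 of 31 genes passed, 1 had an unadjusted p under 0.05, and 0% of all genes passed. That gene was Serpina3n, at 48.6, 50.4 and 53.9 CPM in TDP-43 and 22.2, 26.9 and 30.2 in NTg, a log2 difference of 0.95 (SE 0.29, edgeR adjusted p = 0.997). It had 23.6, 29.4 and 20.2 CPM in Q22, 27.3, 22.6 and 23.3 in Q33, and 21.03, 36.3 and 47.6 in the Q22 double knock-in. Slc1a2 was lower in each TDP-43 library than in each NTg library (log2 fold change -0.15, SE 0.11, edgeR adjusted p = 0.997). In the Q22 double knock-in 0 of 31 passed and 1 had an unadjusted p under 0.05, where 0.00969% of all genes passed. That gene was Aspg (0.67, SE 0.23, edgeR adjusted p = 0.99995), and its groups did not overlap. DESeq2 called 0 of 31 in these 4 comparisons, where 0.00969% of all genes passed in Q33 and in the Q22 double knock-in, 0.00485% in Q22 and 0.0291% in TDP-43.

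The interaction asks whether the Q33 double knock-in departs from the sum of the Q33 and TDP-43 differences on the log2 scale. In edgeR 0 of 31 genes passed, where 0% of all genes did, and 4 had an unadjusted p under 0.05. These were Myoc (-2.89, SE 0.78, adjusted p = 0.245), Slc1a3 (-0.84, SE 0.23, 0.245), Cd44 (-1.16, SE 0.38, 0.255) and Gfap (-1.078, SE 0.47, 0.346). DESeq2 gave an adjusted p for 24 of the 31 and called 1, Slc1a3, as lower, where 1.89% of all genes it tested passed. Without the filter on low counts edgeR called 5 genes lower, Gfap, Vim, Cd44, Myoc and Slc1a3, where 1.36% of all genes passed.

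Across the 18 libraries, several genes followed Gfap. Pearson's r of log2 CPM with Gfap was 0.94 for Cd44, 0.92 for Myoc, 0.92 for Slc1a3, 0.88 for Cd109, 0.88 for Aqp4 and 0.84 for Vim. It was -0.86 for Gjb6, -0.84 for Slc7a10 and -0.81 for Fgfr3. The 6 reactive genes ran from -0.004 for Serpina3n to 0.53 for Osmr. The 20 general genes ran from -0.86 for Gjb6 to 0.92 for Slc1a3, with Sox9 at 0.77, Aldh1l1 at 0.09 and Acsbg1 at -0.66. With Slc1a2 the highest were Slc4a4 (0.70) and Kcnj10 (0.65). Outside the 31, the genes most like Gfap included Pgm5 (0.97), Pcsk6 (0.97), Padi2, Aebp1, Apbb1ip, Pkp4 and Synpo (the last 5 at 0.96), where Aebp1 is an extracellular matrix gene and Padi2 encodes an enzyme that converts arginine to citrulline in glial proteins. Those most like the mean of the 20 general genes included Fgf1 (0.85), Sel1l3 (0.85), Mrvi1 (0.85), Acot11 (0.84), Atp6v0a2 (0.82), Hadha (0.81) and Slc41a1 (0.81), among which Fgf1 encodes a fibroblast growth factor. These values describe libraries that share genotype, scaling and the properties given above.

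Other astrocyte genes outside the 31 were read from lists, as counts in the Q33 double knock-in against NTg. Of 30 further astrocyte genes, 6 rose and 3 fell, where 5.68% of all genes rose and 6.39% fell, with a median log2 fold change of 0.15 against -0.01 over all genes. The 3 with the smallest p were Gpc5, a heparan sulfate proteoglycan (0.45, SE 0.10, from 49.2 ± 1.27 to 67.2 ± 4.23 CPM), Rfx4, a transcription factor of astrocytes (-0.58, SE 0.13), and Lcat, which esterifies cholesterol (-0.91, SE 0.23). The same shares of all genes stand behind the counts of the lists that follow. Of the 13 genes named for the response to neuroinflammation, 3 fell: the complement genes C4b (-2.40, SE 0.40) and C3 (-3.20, SE 0.56) and the glycosyltransferase gene Ggta1 (-1.42, SE 0.28), while the median of that list was 0.21. C3 and C4b are also expressed by other cells of the cord, and of 8 microglia markers 2 fell, Csf1r (-0.63, SE 0.13) and Cx3cr1 (-0.67, SE 0.18).

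Of 6 tested genes common to several types of reactive astrocyte, 1 fell, Il6st (-0.52, SE 0.11), the signalling subunit shared by IL-6 family receptors. It went from 193 ± 5.05 to 134 ± 16.4 CPM, and the median of the list was -0.33. The next by p, S100a10 (0.56, SE 0.21) and Nes (-0.51, SE 0.23), did not pass. Of 7 tested genes named for the response to ischaemia, 1 fell, Clcf1, a cytokine of the IL-6 family (-2.42, SE 0.36, from 1.54 ± 0.632 to 0.282 ± 0.0174 CPM), while Sphk1 (0.70, SE 0.28) and Cd14 (-0.58, SE 0.37) did not pass. Of 14 tested genes of the IL-6 family and STAT3 pathway, 1 fell, a share near the 6.39% of all genes that fell. That gene was Il6ra (-0.78, SE 0.24), while Jak2 (-0.23, SE 0.09) and Jak1 (0.38, SE 0.16) did not pass. This list leaves out Il6st, Clcf1 and Osmr, which were counted elsewhere. Il6st and Clcf1 fell and Osmr did not pass, so the share holds for the list as drawn and not for the whole pathway. Low counts kept Lcn2, Steap4, Timp1, Tgm1, Slc10a6, Il6, Osm and Cntf out of the test.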

How the data were processed

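The values are the authors' deposited counts of read pairs per gene, in 1 table with a column per library. Per the file headers they were made with featureCounts 1.6.1 over exons of GENCODE M19 (build GRCm38.p6), strand-specific, without chimeric pairs. TopHat2, Trim Galore 0.4.1 and DESeq2 are named in the submitters' processing notes. The exon length in base pairs comes from the same deposited table, per the file headers. Each library comes from its own animal, per the labels, and 0 per-sample columns were left unused. Depth was 16061359 to 30978678 counts per library, and 3 counts equal 0.101 to 0.176 CPM (counting error only).

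From the counts, edgeR 4.0.16 (limma 3.58.1, R 4.3.3) gave TMM-scaled CPM, log2 CPM (prior count 2), RPKM and quasi-likelihood tests in 1 fit of 18 libraries with 6 genotype terms. Genes were kept by filterByExpr (20635), p-values were adjusted by Benjamini-Hochberg over all genes within each of 9 comparisons, and a call is an adjusted p under 0.05. Standard errors are the log2 fold change over the square root of F. Fold changes of genes with few counts depend on the prior count. The fit was tested on simulated data. Alternatives were DESeq2 1.42.0, library totals, no filter on low counts, only the groups compared, each replicate left out, and the Hox10 and Hox11 level, the mitochondrial ribosomal RNA share or Y-linked expression as covariates. Leaving out the 3 other libraries of high Hox level was added after seeing the data.

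The 31 genes and the other lists were chosen with earlier results of these data known. All 31 genes are named. Every library's value is given for a gene that passed in any comparison and for Gfap, Vim, Slc1a2, Aqp4 and Aldh1l1, and other genes have single values or ranges. Outside the 31, each list gives its counts and, for the astrocyte and pathway lists, the 3 genes of smallest p in the Q33 double knock-in against NTg. Genes outside the 31 are named from the 8 most correlated with Gfap and the 8 most correlated with the mean of the 20 general genes. Some genes these rules select are not reported here. Promoter sequences are from RefSeq (GRCm38.p6).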

Additional observations from a re-analysis of the deposited data

How the results depend on the processing

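No value changed direction past the threshold. Counts below are of the 31 genes, with the share of all genes that passed in brackets. For fits that left out a replicate that share is not given. In the Q33 double knock-in against NTg (9 genes), 5 passed with the Hox10 and Hox11 level as a covariate (2.57%), 0 with the mitochondrial ribosomal RNA share (0.136%) and 10 with Y-linked expression (10.2%), and fits that left out 1 replicate gave 5 to 13. Against the Q22 double knock-in (12 genes), the same covariates gave 6 (8.1%), 1 (0.354%) and 13 (12.8%), and leaving out a replicate gave 5 to 14. Against TDP-43 (10 genes), 6 passed when only the groups compared were fitted (1.33%), the covariates gave 3 (1.55%), 0 (0.0145%) and 11 (12.5%), and leaving out a replicate gave 6 to 11. Against Q33 (3 genes), 8 passed without the filter on low counts (2.92%), 0 with the mitochondrial share (0%), 2 with Y-linked expression (0.795%), 0 with the 3 other libraries of high Hox level left out (0%), and leaving out a replicate gave 0 to 4. Without the filter, 1 gene passed in TDP-43 against NTg (Serpina3n, 0.214%), 7 in Q33 against NTg (1.04%), 3 in Q22 against NTg (Vim, Cd44 and Cd109, all lower, 0.607%) and 5 in the interaction (1.36%), where DESeq2 called 1 (1.89%), and each of these comparisons had 0 with the filter in edgeR. Apart from the replicates left out, the cause of these changes was not tested. The 5 comparisons with 0 genes stayed at 0 in every fit that left out a replicate. No paired analysis was possible because the labels give animal numbers that the genotypes do not share. Depth limits Ptx3, with 1 count in its lowest library, and Myoc, with 4 counts in replicate 1 of the Q33 double knock-in. With 3 animals per genotype, a gene that missed the threshold is not shown to be equal between groups.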
